A study of Mus musculus with 9 samples.

Results

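Il12a and 9 other genes for cytokines and chemokines that stromal and bone cells can make were followed in differentiated MC3T3-E1 cells that received organic or inorganic phosphate. The genes were taken by name from the table of 55416 genes: Il12a, Il6, Il11, Lif, Il33, Ccl2, Ccl7, Cxcl1, Cxcl5 and Cxcl12. All 10 names matched 1 row each, 8 of the 10 had any reads, and 4 of the 10 had enough reads for the test across all genes (Il12a, Lif, Il11 and Cxcl12). Il12a was selected on its read counts in these same 9 libraries, where it differed between the conditions, so its levels are given as a description without a test. The other 9 genes were listed as cytokines and chemokines of stromal and bone cells, and whether their values played a part in the choice is not known.

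MC3T3-E1 is a clonal line of wild-type pre-osteoblasts from mouse calvarial bone, so all libraries come from 1 genotype and 1 clone. All cells had been kept for 27 days in osteogenic medium that held fetal bovine serum, 10 mM β-glycerophosphate (BGP), 50 µg/ml ascorbic acid and 0.1 µM dexamethasone, a synthetic glucocorticoid. The sample labels give that medium up to day 27, while the study's methods describe BGP as left out for the last part of the culture. For the final 16 h the cells received 4 mM BGP, an organic phosphate, or 4 mM of a mixture of Na2HPO4 and NaH2PO4 (NaHPO4), an inorganic phosphate, or no added phosphate (Control). Poly(A) RNA was sequenced in 3 libraries per condition. Total counts lay between 21390839 and 28234404 per library, and the limit that a count of 0 allows (3 counts) was 0.105 to 0.140 CPM, the count scaled to library depth. The labels do not say whether the 3 libraries of a condition came from separate cultures, so p-values measure the spread between these libraries, which may be technical.

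The cells expressed osteoblast genes, and osteocyte genes at uneven levels. In Control, Runx2 and Sp7, transcription factors that osteoblasts need, stood at 421 ± 4.57 and 553 ± 13.7 CPM (SD, n = 3), and Bglap, which encodes osteocalcin, at 262 ± 12.7 CPM, although 56.6% of the 50-base windows of Bglap also occur in Bglap2 or Bglap3. Of the osteocyte genes, Dmp1 and Phex stood at 76.0 ± 10.4 and 34.7 ± 0.543 CPM in Control. Mepe and Sost were low, at 3.45 ± 0.391 and 1.39 ± 0.0360 CPM. Of 16 immune cell markers 8 had 0 counts in all 9 libraries. Ptprc, the common leukocyte antigen, had 1 count in 1 BGP library, and the macrophage marker Cd68 had 11 to 33 counts per library. Of 5 endothelial markers, 1 was at 0 and Pecam1 had 0 to 4 counts per library, while Vwf, the 1 marker tested, stood at 2.14 ± 0.169 CPM in Control, 2.19 ± 0.104 with BGP and 2.32 ± 0.182 with NaHPO4 (adjusted p = 0.966, 0.823 and 0.898 for BGP against Control, NaHPO4 against Control and BGP against NaHPO4). In bulk RNA, fewer cells of a type and less RNA per cell cannot be told apart.

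Cytokines of the interleukin-12 family are heterodimers of an alpha chain and a beta chain. The product of Il12a (p35) joins that of Il12b (p40) to form IL-12, or that of Ebi3 to form IL-35. IL-6, IL-11 and LIF signal through receptors that share the gp130 chain (Il6st) and activate STAT3, and bone cells are known to respond to them. CCL2, CCL7, CXCL1 and CXCL5 attract myeloid cells and are commonly switched on by NF-kB, which glucocorticoids restrain, whereas CXCL12 is made steadily by stromal cells of bone marrow and retains hematopoietic cells through CXCR4.

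Il12a (ENSMUSG00000027776) lies on the plus strand of chromosome 3 at 68597977 to 68605880 of GRCm39, with 6 transcripts that start at 5 positions, and its exons overlap an exon of Gm66274 on the opposite strand. RefSeq gives promoter windows, from 250 bases before to 50 after a transcript start, for 7 of the 10 genes (10 windows, from GRCm38.p6). Each printed window was found once, by exact match, in GRCm39. The bases before the start are shown for the 2 starts of Il12a, the gene whose counts differed between conditions, and for Il6 and Cxcl1, a pair of classical NF-kB targets that stayed near or at 0. Bases inside exons of the gene were removed, and capitals mark matches to an AP-1 motif or an NF-kB motif.
Il12a, start 1, chr3:68597727-68597976: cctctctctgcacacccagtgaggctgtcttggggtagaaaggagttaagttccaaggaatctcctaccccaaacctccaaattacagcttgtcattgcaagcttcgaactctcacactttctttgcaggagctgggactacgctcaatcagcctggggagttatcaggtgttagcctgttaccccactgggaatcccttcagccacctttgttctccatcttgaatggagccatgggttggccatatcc
Il12a, start 2, chr3:68598507-68598684: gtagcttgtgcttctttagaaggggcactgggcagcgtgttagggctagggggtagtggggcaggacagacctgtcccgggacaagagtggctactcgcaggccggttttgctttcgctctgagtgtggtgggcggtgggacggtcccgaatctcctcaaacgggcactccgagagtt
Il6, chr5:30217862-30218111: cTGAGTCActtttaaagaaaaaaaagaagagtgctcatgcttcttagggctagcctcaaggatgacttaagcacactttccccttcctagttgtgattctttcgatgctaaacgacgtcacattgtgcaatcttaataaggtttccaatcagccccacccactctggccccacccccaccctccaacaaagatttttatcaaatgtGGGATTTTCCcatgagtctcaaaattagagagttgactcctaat
Cxcl1, chr5:91038854-91039093: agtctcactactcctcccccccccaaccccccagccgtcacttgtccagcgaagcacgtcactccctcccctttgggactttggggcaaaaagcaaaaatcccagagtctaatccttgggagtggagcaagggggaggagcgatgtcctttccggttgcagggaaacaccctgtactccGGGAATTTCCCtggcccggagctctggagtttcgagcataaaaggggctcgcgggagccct

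Both strands of these windows were searched for 3 motifs: AP-1 (TGANTCA), a motif of EGR factors (GCGNGGGCG) and the NF-kB motif. The letters of AP-1 were present in 7.81%, those of EGR in 5.55% and those of NF-kB in 4.51% of all 32851 RefSeq promoter windows of this length. Neither window of Il12a held any of them, nor did the windows of Il33 and Cxcl12. Counting the last base before the start as -1, the Il6 window held AP-1 from -249 and NF-kB from -44, and the Cxcl1 window held NF-kB from -71, with an overlapping match on the other strand from -70. The AP-1 letters also began at -98 in 1 window of Il11 and at -228 in that of Lif. A match is a description of letters and not of a bound factor.

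Il12a, the gene for the p35 chain, was higher with either phosphate and highest with BGP. Its counts were 70, 55 and 81 in the Control libraries, 157, 186 and 177 with BGP, and 123, 135 and 124 with NaHPO4. Scaled to depth, that was 3.27, 2.39 and 3.19 CPM in Control, 7.08, 8.36 and 7.61 CPM with BGP, and 4.48, 4.74 and 4.84 CPM with NaHPO4. All 3 conditions were separate from each other, without overlap of any library. The means were 2.95 ± 0.485, 7.68 ± 0.640 and 4.69 ± 0.188 CPM (SD, n = 3). The fitted fold was 2.60 for BGP versus Control (log2FC 1.38, SE 0.148, 95% interval 1.08 to 1.68), 1.59 for NaHPO4 versus Control (log2FC 0.67, SE 0.154, 0.35 to 0.98) and 1.64 for BGP versus NaHPO4 (log2FC 0.71, SE 0.134, 0.44 to 0.99). Since Il12a was chosen by these counts, no p-value is given and the intervals are descriptive only. Without any single library the log2FC stayed between 1.25 and 1.45, 0.54 and 0.74, and 0.65 and 0.77, ranges that also hold the other alternatives.

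**Figure D1:**
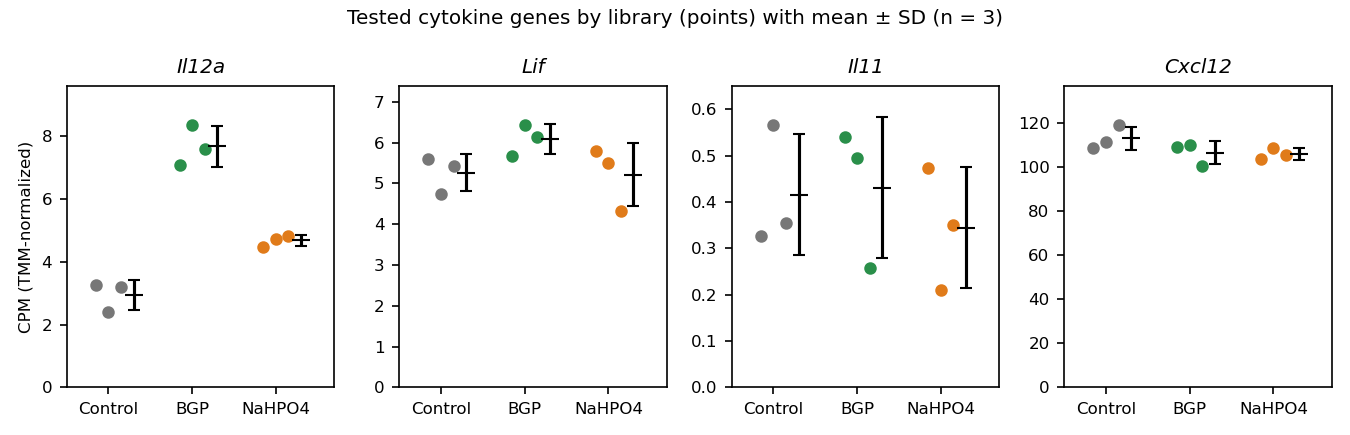
TMM-normalized CPM (vertical axes, each from 0) of the 4 cytokine and chemokine genes with enough reads for the test, by condition (horizontal axes); points are libraries, bars the mean and SD of 3. Il12a is separate in all 3 conditions, at means of 2.95, 7.68 and 4.69 CPM, while the libraries of Il11 overlap between all conditions.

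Immune cells are the best known source of IL-12. The summed level of the 16 immune markers was 5.79 to 7.52 CPM in Control, 6.60 to 9.02 with BGP and 7.35 to 7.61 with NaHPO4. Cd14 made up most of it, at 4.88 ± 0.723 CPM in Control, 5.79 ± 1.23 with BGP and 5.72 ± 0.220 with NaHPO4. Of the 3 tested markers, 0 passed edgeR's quasi-likelihood test in any comparison, with 0 at an unadjusted p under 0.05. Edger's likelihood ratio test, DESeq2 and limma also called 0. However, DESeq2 gave no adjusted p for 2 of the 3 in NaHPO4 versus Control and in BGP versus NaHPO4.

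The other chain of IL-12 or IL-35 was near or at 0. Il12b, the p40 chain, had 0 counts in 8 libraries and 2 counts in 1 BGP library. Ebi3 had 0 counts in all 9 libraries, which at this depth allows up to 0.105 to 0.140 CPM per library. Il23a, an alpha chain that also pairs with p40, had 0 or 1 counts per library, and Il27 had 0 in all. Il12a was the only ligand gene of this family with more than 3 counts in every library.

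Of the 8 genes of the IL-12 family partners and receptors, 2 were at 0 in every library and 3 were tested. Il12rb1, a receptor chain shared by IL-12 and IL-23, stood at 32.0 ± 1.04 CPM in Control, 36.9 ± 2.97 with BGP and 37.0 ± 1.09 with NaHPO4. It rose with NaHPO4 (log2FC 0.21, adjusted p = 0.0217), where 3.43% of all tested genes rose and 3.95% fell at an FDR below 0.05, and this call held in 14 of 18 alternatives. With BGP its log2FC was 0.20 (adjusted p = 0.061), where 1.86% of genes rose and 0.665% fell, and between BGP and NaHPO4 it was -0.0046 (adjusted p = 0.985). In BGP versus Control 0 of the 3 passed edgeR's quasi-likelihood test, with 1 at an unadjusted p under 0.05, 1 by edgeR's likelihood ratio test and 0 by DESeq2 or limma. DESeq2 gave no adjusted p for 1 of the 3 there. Il12rb2, the chain that completes the IL-12 receptor, was at 1.82 ± 0.405, 1.60 ± 0.425 and 1.41 ± 0.134 CPM, and did not pass (adjusted p = 0.834, 0.493 and 0.82 for BGP against Control, NaHPO4 against Control and BGP against NaHPO4). The median log2FC of the 3 tested genes was 0.20, 0.21 and -0.0046, beside -0.0043, 9.7e-05 and -0.0018 over all genes.

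Lif, Il11 and Cxcl12 were not differentially expressed genes (DEG, FDR below 0.05 and absolute log2FC above 0.5) in any comparison. Il12a was left out of this statement, since it was chosen by its counts. In the same order of comparisons, DEGs made up 0.556%, 0.716% and 0.585% of all 13679 tested genes. Libraries of the compared conditions did not overlap for 2 of the 4 tested members in BGP versus Control (Il12a and Lif), beside 18.5% of all genes. In NaHPO4 versus Control and in BGP versus NaHPO4 that held for 1 of the 4 (Il12a), beside 23.2% and 21.2%. Nothing is read from the part of Il12a in these counts. The median log2FC of the 4 was 0.13, -0.05 and 0.27.

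Lif encodes leukemia inhibitory factor, which acts on bone cells through Lifr and gp130. Its counts were 120, 109 and 138 in Control, 126, 143 and 143 with BGP, and 159, 157 and 111 with NaHPO4, or 5.61, 4.74 and 5.43 CPM, 5.68, 6.42 and 6.15 CPM, and 5.79, 5.51 and 4.33 CPM. The BGP libraries lay just above the Control libraries, while those of NaHPO4 spanned the Control range. The log2FC was 0.21 with BGP (SE 0.139, 95% interval -0.07 to 0.49, adjusted p = 0.556), -0.01 with NaHPO4 (SE 0.139, -0.29 to 0.27, adjusted p = 0.978) and 0.22 between BGP and NaHPO4 (SE 0.136, -0.06 to 0.50, adjusted p = 0.446). None passed, and the intervals reach a rise of 0.49 and 0.50 on the log2 scale.

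Il11, for a cytokine that stromal cells and osteoblasts make and that favours bone formation, was sparse. It had 7, 13 and 9 counts in Control, 12, 11 and 6 with BGP, and 13, 6 and 9 with NaHPO4, with libraries of all 3 conditions overlapping. The means were 0.416 ± 0.131, 0.431 ± 0.152 and 0.345 ± 0.131 CPM (SD, n = 3). The intervals of the log2FC ran from -0.94 to 1.03, -1.26 to 0.72 and -0.67 to 1.31 (adjusted p = 0.979, 0.828 and 0.825), and changes inside these intervals were not detectable at this depth.

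Cxcl12, the steadily made stromal chemokine, was the most abundant of the 10. Its counts were 2323, 2565 and 3022 in Control, 2418, 2448 and 2340 with BGP, and 2845, 3097 and 2700 with NaHPO4. That gave 113 ± 5.33, 107 ± 5.18 and 106 ± 2.62 CPM (SD, n = 3), with overlapping libraries. The log2FC was -0.09 with BGP (SE 0.0418, adjusted p = 0.355), -0.10 with NaHPO4 (SE 0.0413, adjusted p = 0.177) and 0.01 between BGP and NaHPO4 (SE 0.0415, 95% interval -0.08 to 0.09, adjusted p = 0.959). The narrow intervals, from -0.17 to -0.0023 with BGP and from -0.18 to -0.01 with NaHPO4, come with the highest counts of the group. They are not adjusted for the number of genes tested. Both lie below 0, with unadjusted p = 0.0444 and 0.027 by edgeR's quasi-likelihood test, but neither passed after adjustment.

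**Figure D2:**
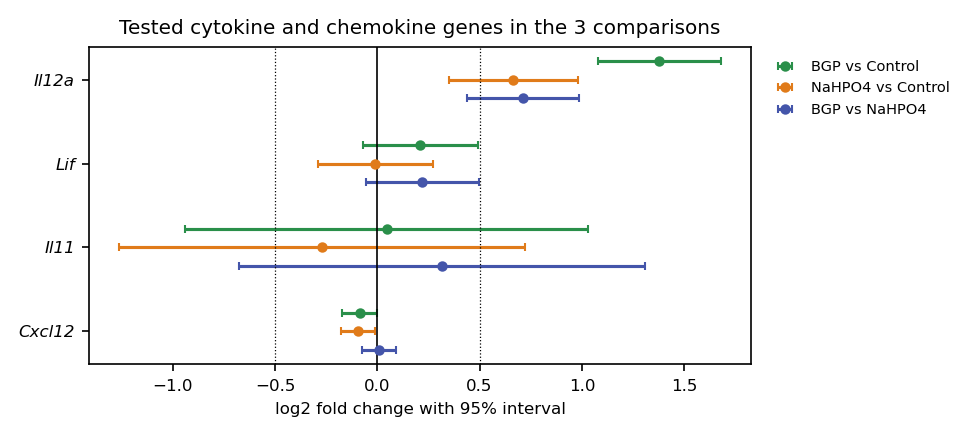
Fitted log2FC (horizontal axis) of the 4 tested genes in each comparison; points are estimates and bars 95% intervals from the fit to all 9 libraries. Il12a lies at 1.38, 0.67 and 0.71, Il11 has the widest intervals (-1.26 to 1.31 over the 3 comparisons) and Cxcl12 the narrowest.

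The remaining 6 genes were too sparse for the test. Il6, the founding gp130 cytokine, had 0, 1 and 1 counts in Control, 4, 2 and 3 with BGP, and 5, 2 and 4 with NaHPO4. Each phosphate-treated library thus had more counts than each Control library, but the sums were only 2, 9 and 11. The depth-scaled ratio of summed counts was 4.64 for BGP versus Control (95% interval 0.960 to 44.1), 4.70 for NaHPO4 versus Control (1.03 to 43.7) and 0.986 for BGP versus NaHPO4 (0.361 to 2.62). These intervals cover counting error only. In a fit without a filter on low counts (24582 genes) the adjusted p of Il6 was 0.737, 0.564 and 1.

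Il33 encodes a nuclear cytokine of the IL-1 family that is released from damaged cells and binds the receptor chain of Il1rl1. It had 2, 0 and 2 counts in Control, 5, 3 and 0 with BGP, and 3, 5 and 1 with NaHPO4, with overlapping libraries. Its ratios of summed counts were 2.06 (0.552 to 9.35), 1.92 (0.537 to 8.55) and 1.07 (0.360 to 3.13).

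Ccl2 and Ccl7 are neighbours on chromosome 11 (81926397 to 81928279 and 81936532 to 81938351, plus strand, GRCm39) and encode monocyte attractants that share receptors. Ccl2 had 2, 8 and 7 counts in Control, 0, 6 and 3 with BGP, and 1, 13 and 4 with NaHPO4, and its libraries varied within each condition as much as between them. Ccl7 had 0, 2 and 7, then 2, 4 and 5, then 0, 2 and 2. The ratios were 0.546 (0.214 to 1.29), 0.906 (0.440 to 1.87) and 0.602 (0.238 to 1.41) for Ccl2, and 1.26 (0.475 to 3.44), 0.380 (0.0856 to 1.36) and 3.31 (0.982 to 14.3) for Ccl7. All these intervals include 1, and the adjusted p without a filter lay between 0.685 and 1 for both genes.

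Cxcl1 and Cxcl5, neutrophil attractants in the same cluster of chromosome 5, had 0 counts in all 9 libraries. That allows up to 3 counts per library, or 0.105 to 0.140 CPM. The libraries therefore hold no measurable difference for either, and no fold is given.

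**Figure D3:**
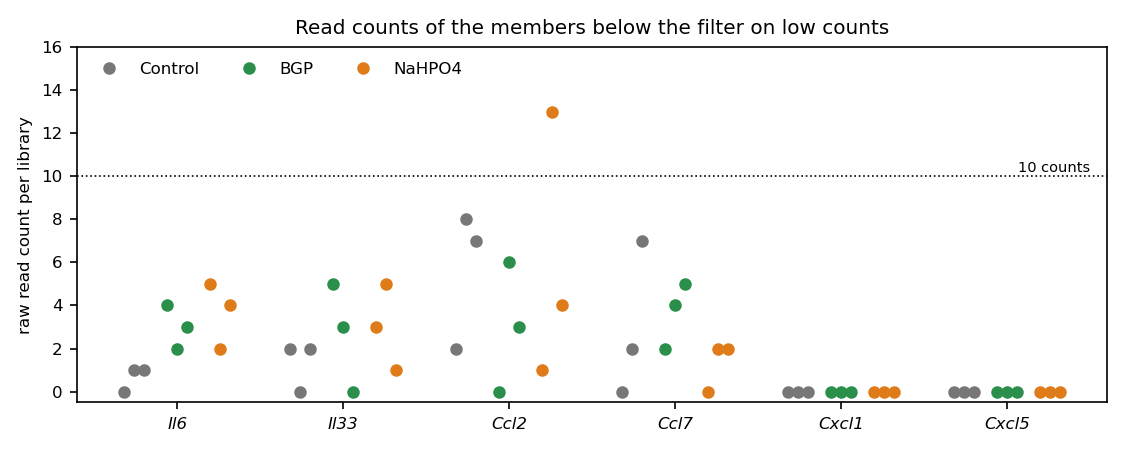
Read counts per library (vertical axis) of the 6 genes too sparse for the test, by condition; each point is 1 library. Il6 reaches 5 counts and Ccl2 13 counts at most, and Cxcl1 and Cxcl5 stay at 0 in all 9 libraries.

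Compared as RPKM, which is CPM divided by the annotated exon length in kilobases, the levels in Control were 13.5 ± 0.639 for Cxcl12, 1.66 ± 0.274 for Il12a, 1.14 ± 0.0995 for Lif, 0.210 ± 0.115 for Ccl2, 0.200 ± 0.0627 for Il11, 0.150 ± 0.175 for Ccl7, 0.0114 ± 0.00989 for Il6 and 0.00929 ± 0.00813 for Il33. Ccl2, Il11 and Ccl7 did not differ beyond their spread, nor did Il6 and Il33. With BGP the level of Il12a was 4.33 ± 0.361 and that of Lif 1.32 ± 0.0812, and with NaHPO4 they were 2.64 ± 0.106 and 1.13 ± 0.168. On this scale Il12a thus stayed next below Cxcl12 in all 3 conditions, with Lif after it, an order that depends on the exon length used. In CPM the mean of Lif was above that of Il12a in Control (5.26 ± 0.458 and 2.95 ± 0.485). The same held with NaHPO4 (5.21 ± 0.772 and 4.69 ± 0.188), but not with BGP (6.08 ± 0.374 and 7.68 ± 0.640).

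In RPKM the receptors of the ligands spanned a wider range in Control. Lifr stood at 103.7 ± 2.67, Il11ra1 at 19.3 ± 0.393, Il6st at 13.7 ± 0.391, Il12rb1 at 5.15 ± 0.167 and Il6ra at 1.87 ± 0.150 RPKM. Il12rb2 was at 0.481 ± 0.107 and Il1rl1, the IL-33 receptor chain, at 0.228 ± 0.0663. The signaling receptors of the listed chemokines had few reads: Ccr2, for CCL2 and CCL7, had 0 counts in all libraries, Cxcr2, for CXCL1 and CXCL5, had 2 counts in 1 BGP library, and Cxcr4, for CXCL12, had 2 counts in 1 Control library. Ackr3, a scavenging receptor of CXCL12, was at 0.146 ± 0.0275 RPKM. Ackr4, a scavenging receptor of other chemokines, was abundant, at 29.9 ± 1.02 RPKM in Control, 29.9 ± 1.40 with BGP and 28.9 ± 0.248 with NaHPO4. For LIF and IL-11, the ligand gene and its signaling receptor genes had reads in every library, although Il11 was sparse. Il12a and both IL-12 receptor chains also had reads in every library, but Il12b was near or at 0. Cxcl12 and its scavenging receptor Ackr3 had reads in every library, unlike Cxcr4.

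**Figure D4:**
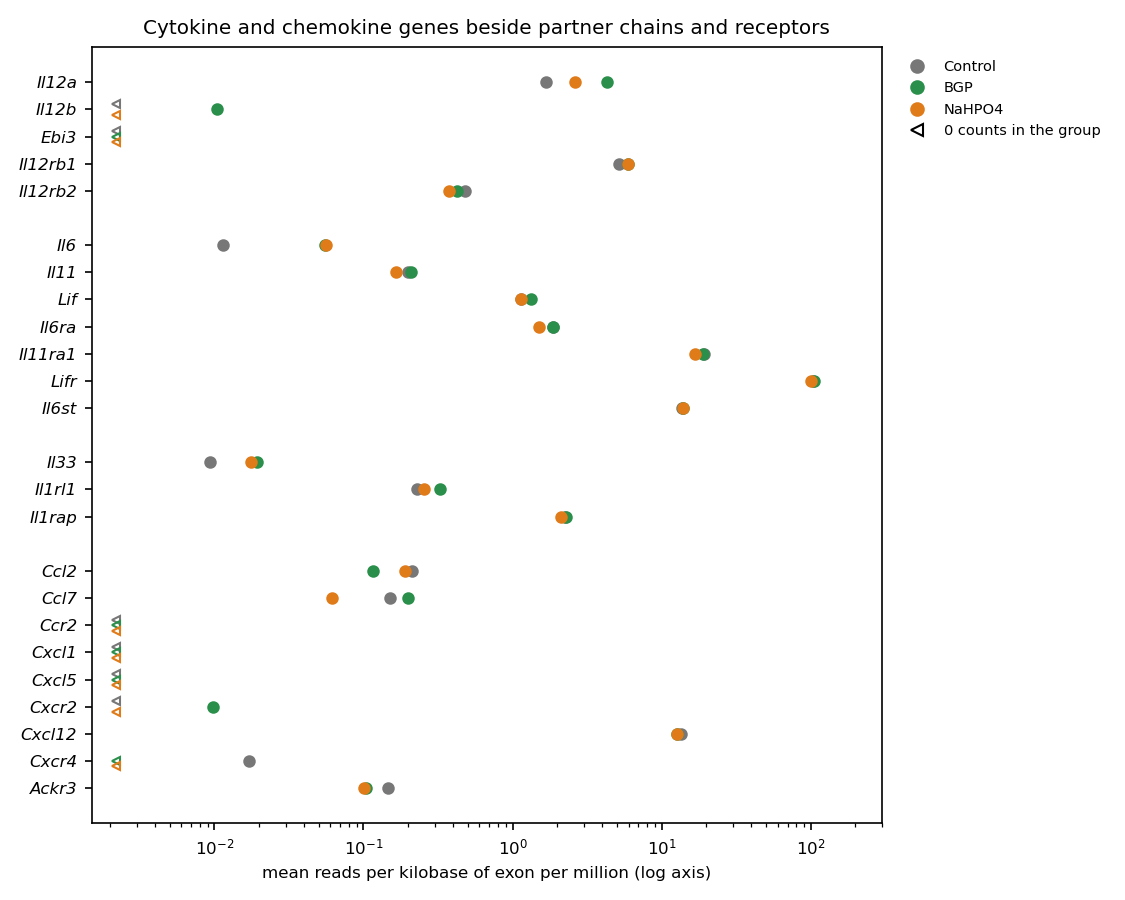
Mean RPKM on a log axis of the 10 cytokine and chemokine genes and of their partner chains and receptors, with 1 point per condition (mean of 3 libraries); open triangles at the left edge mark conditions with 0 counts. In Control Lifr is at 103.7 and Cxcl12 at 13.5 RPKM, while Ebi3, Ccr2, Cxcl1 and Cxcl5 have 0 counts in every condition.

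Several receptor genes of the gp130 family changed with NaHPO4. Of 10 listed genes 7 were tested and Osm was at 0 in every library. With NaHPO4 versus Control 1 rose (Osmr) and 3 fell at an FDR below 0.05, beside 3.43% and 3.95% of all genes. Only Osmr also passed the minimum log2FC of a DEG. With BGP versus Control 0 of 7 passed edgeR's quasi-likelihood test, with 0 at an unadjusted p under 0.05 and 0 by edgeR's likelihood ratio test, DESeq2 or limma. In the direct comparison of BGP with NaHPO4, which uses the same NaHPO4 libraries, 3 were higher and 1 lower with BGP, where 3.33% of all genes were higher and 2.05% lower at that FDR. The median log2FC of the 7 was -0.19 with NaHPO4, 0.0037 with BGP and 0.17 between them.

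Osmr, the oncostatin M receptor chain that pairs with gp130, had 234 to 323 counts in Control, 248 to 316 with BGP and 579 to 615 with NaHPO4. That was 12.5 ± 1.56, 12.4 ± 1.20 and 22.1 ± 1.37 CPM (SD, n = 3), so every NaHPO4 library lay above all others. It rose with NaHPO4 (log2FC 0.81, SE 0.0882, adjusted p = 2e-08) and the BGP libraries lay below the NaHPO4 libraries (log2FC -0.84, SE 0.0888, adjusted p = 2.06e-08). With BGP versus Control the log2FC was -0.02 (95% interval -0.22 to 0.17, adjusted p = 0.949).

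The 3 genes that fell are ligand-specific receptor chains. Cntfr, for ciliary neurotrophic factor, went from 29.3 ± 1.64 CPM in Control to 21.7 ± 1.87 with NaHPO4 (log2FC -0.43, adjusted p = 3.15e-05) and was 29.1 ± 1.58 with BGP. Il6ra, for IL-6, went from 16.6 ± 1.33 to 13.3 ± 1.02 CPM (log2FC -0.32, adjusted p = 0.0162). Il11ra1, for IL-11, went from 145 ± 2.94 to 126 ± 7.58 CPM (log2FC -0.20, adjusted p = 0.000734), although 23.5% of its 50-base windows also occur in Il11ra2 or Il11ra3. All 3 stood above their NaHPO4 level with BGP, by log2FC 0.42 (adjusted p = 7.16e-05), 0.33 (adjusted p = 0.0193) and 0.17 (adjusted p = 0.0066). The shared chain Il6st, at 213 ± 6.07, 217 ± 2.42 and 217 ± 2.95 CPM, and Lifr, at 1431 ± 36.8, 1457 ± 26.6 and 1377 ± 67.6 CPM, did not pass in any comparison. Of 13 osteoblast and osteocyte markers, 1 rose and 6 fell with NaHPO4 (3.43% and 3.95% of all genes), 2 rose and 1 fell with BGP (1.86% and 0.665%), and 6 were higher and 0 lower with BGP than with NaHPO4 (3.33% and 2.05%). Dmp1, an osteocyte matrix protein gene, rose and Postn fell with both phosphates, Phex rose with BGP (called in 12 of 18 alternatives), and Alpl, Bglap, Col1a1, Col1a2 and Sost fell with NaHPO4. Their summed level was 112639 to 119783 CPM in Control, 109890 to 116132 with BGP and 99644 to 106508 with NaHPO4, and its part in the changes of the gp130 family was not tested.

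**Figure D5:**
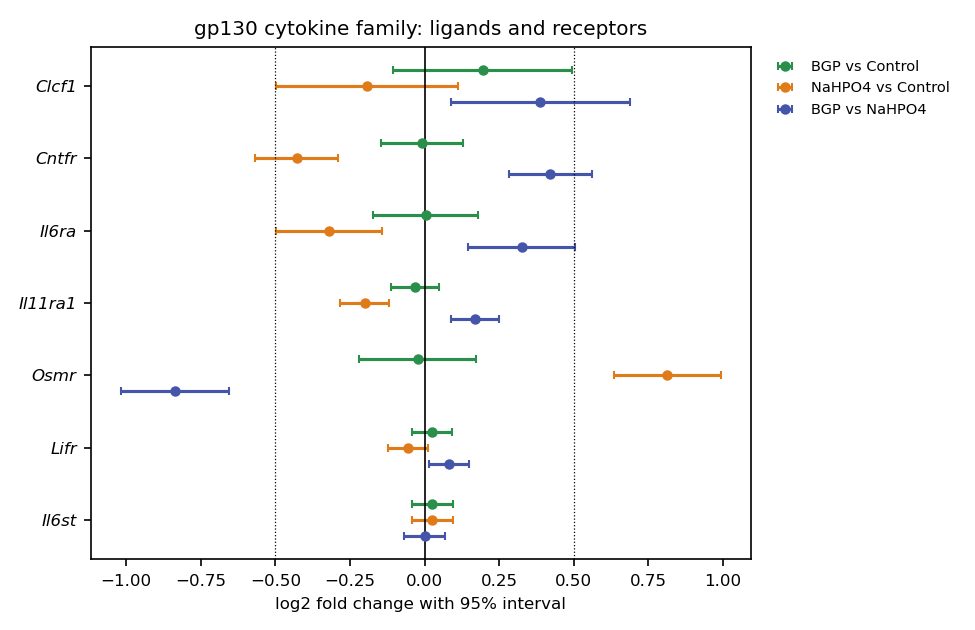
Fitted log2FC (horizontal axis) with 95% intervals for the 7 tested gp130 family receptors and ligands in each comparison; dotted lines mark the minimum log2FC of a DEG (0.5 in either direction). Osmr (0.81) lies above 0 with NaHPO4 versus Control, Cntfr (-0.43), Il6ra (-0.32) and Il11ra1 (-0.20) lie below it, and the BGP versus Control estimates of these genes lie near 0.

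Genes known as STAT3 targets or feedback genes were read as a second list, of which 15 of 16 were tested. With BGP 2 rose and 2 fell, beside 1.86% and 0.665% of all genes. With NaHPO4 3 rose and 3 fell, beside 3.43% and 3.95%, and between BGP and NaHPO4 2 were higher and 2 lower, beside 3.33% and 2.05%. Timp1, a protease inhibitor, rose from 145 ± 9.18 CPM to 291 ± 13.3 with BGP (log2FC 1.00, adjusted p = 5.09e-18) and to 446 ± 41.5 with NaHPO4 (log2FC 1.62, adjusted p = 1.46e-24). Junb, a subunit of AP-1, rose with BGP (log2FC 0.42, adjusted p = 1.62e-06) and exceeded its NaHPO4 level (log2FC 0.42, adjusted p = 7.18e-07). The feedback inhibitors Cish and Socs2 fell with NaHPO4 (log2FC -0.49 and -0.31, adjusted p = 0.0162 and 0.000121), and Stat3 (0.21) and Bcl6 (0.21) rose, that of Bcl6 in 13 of 18 alternatives. Cebpb fell with both phosphates (-0.26 and -0.27) and Cebpd with BGP (-0.35). Socs3, a gene that gp130 cytokines induce directly, stood at 61.3 ± 6.33, 59.9 ± 3.73 and 60.5 ± 1.87 CPM and did not pass. The list's median log2FC was -0.0094, -0.02 and -0.03.

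Of the NF-kB targets and feedback genes 19 of 20 were tested. With BGP 1 rose and 1 fell, where 1.86% and 0.665% of all genes did, with NaHPO4 0 rose and 2 fell (3.43% and 3.95%), and between BGP and NaHPO4 1 was higher and 0 lower (3.33% and 2.05%). Tnfaip3, an inhibitor of NF-kB signaling, rose with BGP, from 21.1 ± 0.479 to 25.3 ± 1.34 CPM (log2FC 0.26, adjusted p = 0.0294), and exceeded its NaHPO4 level (log2FC 0.23, adjusted p = 0.0328). These calls held in 12 and 11 of 18 alternatives, and neither DESeq2 nor limma made the call between BGP and NaHPO4. Tnip1, its binding partner, fell by 0.16 on the log2 scale with BGP (adjusted p = 0.021, called in 14 of 18 alternatives) and by a log2FC of -0.27 with NaHPO4 (adjusted p = 8.85e-06), and Tnfaip2 fell with NaHPO4 (log2FC -0.18, adjusted p = 0.00155). Nfkbia, the inhibitor that NF-kB itself induces, stood at 66.7 ± 4.38, 63.8 ± 2.09 and 61.5 ± 1.96 CPM and did not pass. All cells had dexamethasone in the medium. Of 8 glucocorticoid-responsive genes, 1 rose and 0 fell with BGP (1.86% and 0.665% of all genes). With NaHPO4 0 rose and 2 fell (3.43% and 3.95%), and between BGP and NaHPO4 1 was higher and 0 lower (3.33% and 2.05%). Sgk1 rose with BGP (log2FC 0.13, adjusted p = 0.0246). Tsc22d3 (log2FC -0.10, adjusted p = 0.0328) and Dusp1 (log2FC -0.32, adjusted p = 0.00856) fell with NaHPO4. These calls held in 13, 11 and 17 of 18 alternatives. Dusp1 stood above its NaHPO4 level with BGP (log2FC 0.32, adjusted p = 0.0117, called in 16 of 18 alternatives).

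Beyond these genes many of the listed chemokines and cytokines had no reads, but not all were low. Csf1, a cytokine gene, stood at 356 ± 31.9 CPM in Control, 372 ± 20.7 with BGP and 342 ± 16.6 with NaHPO4, above Cxcl12. Of 32 other chemokines 19 had 0 counts in every library and 6 were tested. None of the 6 passed edgeR's quasi-likelihood test in any comparison, with 1, 0 and 2 at an unadjusted p under 0.05, and 0 by edgeR's likelihood ratio test, DESeq2 or limma. DESeq2 gave no adjusted p for 2, 3 and 3 of the 6. Of 17 chemokine receptors 9 were at 0 and 2 were tested, with 0 called and 0 at an unadjusted p under 0.05 by edgeR's quasi-likelihood test, and 0 by the other 3 tools. For 1 of the 2, DESeq2 gave no adjusted p in NaHPO4 versus Control and in BGP versus NaHPO4. Of 34 other cytokines 17 were at 0 and 10 were tested. At an FDR below 0.05, 1 rose and 0 fell with BGP, beside 1.86% and 0.665% of all genes. With NaHPO4 1 rose and 0 fell (3.43% and 3.95%), and between BGP and NaHPO4 0 were higher and 1 lower (3.33% and 2.05%). Il16, a chemoattractant of CD4+ cells, rose with BGP (log2FC 0.28, adjusted p = 0.0233, called in 15 of 18 alternatives and not by DESeq2). Mif, macrophage migration inhibitory factor, rose with NaHPO4 (log2FC 0.22, adjusted p = 0.00834) and its BGP level lay below its NaHPO4 level (log2FC -0.28, adjusted p = 0.000986), although 22.8% of its 50-base windows also occur in pseudogenes. Of 14 IL-1 family genes 11 matched and 6 were tested. With NaHPO4 1 of the 6 rose and 0 fell, beside 3.43% and 3.95% of all genes. In BGP versus Control and BGP versus NaHPO4 0 passed edgeR's quasi-likelihood test, with 1 and 0 at an unadjusted p under 0.05. Il1r1, the IL-1 receptor, rose with NaHPO4 (log2FC 0.17, adjusted p = 0.0318), a call held in 13 of 18 alternatives and not by DESeq2. Il1rl1 was at 1.57 ± 0.457, 2.26 ± 0.478 and 1.75 ± 0.563 CPM.

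Over the 9 libraries, the genes whose log2 CPM followed Il12a most closely were Egr3 (Pearson r = 0.973), Tnfrsf12a (0.971), Tmed7 (0.967), Ccn2 (0.962) and Fam20c (0.961). The value is a description over 9 points that share their conditions and depths. The mean CPM in Control, BGP and NaHPO4 was 28.9, 103 and 52.2 for Egr3, an immediate early transcription factor. It was 31.8, 55.6 and 46.3 for Tnfrsf12a, the receptor of TWEAK, and 39.3, 76.2 and 61.2 for Ccn2, connective tissue growth factor. Fam20c, a kinase of secreted proteins, was at 80.2, 176 and 132, and Tmed7, a cargo receptor of early secretory vesicles, at 128, 140 and 134. Each had the order of Il12a, with BGP above NaHPO4 above Control, which follows from choosing them by this correlation and is no separate result. The r with Il12a was 0.585 for Lif, -0.08 for Il11 and -0.49 for Cxcl12.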

How the data were processed

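The authors mapped reads from stranded poly(A) libraries to GRCm39 with the AIR software and deposited a table of counts, whole-number reads per Ensembl gene and library, without normalization. The counting program and its strand setting are not given in the sources used here. They also deposited TMM-scaled values, a signal equal to the counts multiplied by 1 factor per library (1.01 to 1.32), used as an alternative only. Both tables hold 55416 genes.

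Tests started from the counts. After filterByExpr (count minimum 10; 13679 genes) and TMM scaling, 1 model of the 3 conditions was fitted to all 9 libraries with glmQLFit of edgeR 4.0.16 and tested with glmQLFTest, with Benjamini-Hochberg adjustment over all tested genes. Standard errors came from the F statistic. CPM are TMM-normalized, with SDs over 3 libraries. RPKM used the merged exon length of a later GENCODE annotation of GRCm39. Ratios of sparse genes have exact conditional binomial 95% intervals, which cover counting error only. The log2 CPM behind the likeness to Il12a had a prior count of 2. The procedure was tested on simulated data with 200 changed genes. Replicate libraries differed by more than sampling noise (chi-square per degree of freedom 2.61 to 4.84). The genes and lists were chosen with earlier results of these data known. Genes named are the 10 members, every listed gene with an FDR below 0.05 in any comparison, direct partners and receptors, defining cell markers, and the 5 genes most like Il12a. The listed genes Socs3, Nfkbia, Il23a, Il27, Osm, Cd14, Ackr4, Vwf, Csf1 and Mepe fell outside that rule and were named after their values were seen. A listed gene is not reported here and was left out of its list. Whether the replicate numbers in the labels pair the libraries was left undecided, and the main fit had no block for them. Alternatives were edgeR's likelihood ratio test, DESeq2 1.42.0, limma 3.58.1 on log2(value + 1), other scalings, other filters, a fit of only the 2 conditions compared, a block for the replicate number and leaving out single libraries. R 4.3.3, Python 3.11.15, pandas 2.3.3 and matplotlib 3.10.9 were used.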

Additional observations from a re-analysis of the deposited data

How the results depend on the processing

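Over 18 alternatives the log2FC of Il12a ran from 1.25 to 1.45, 0.54 to 0.74 and 0.65 to 0.77 in the 3 comparisons, values of the counts it was chosen by. Lif and Cxcl12 passed in no alternative. Il11 passed in none of the 17, 16 and 17 alternatives that held it, and among these DESeq2 gave it no adjusted p. Directions changed only where values were near 0 and never called. With each library left out in turn, the log2FC of Il11 ran from -0.15 to 0.32 (BGP versus Control) and from -0.57 to 0.0091 (NaHPO4 versus Control), that of Lif from -0.090 to 0.10 (NaHPO4 versus Control) and that of Cxcl12 from -0.012 to 0.048 (BGP versus NaHPO4). With total counts in place of TMM, Lif was at 0.014 (NaHPO4 versus Control) and Cxcl12 at -0.019 (BGP versus NaHPO4), and limma on the TMM-scaled table gave -0.0080 for Cxcl12. The cause was not tested. Any pairing by replicate number was weak and was left undecided. The mean correlation of deviations was 0.0127 over 9 same-numbered pairs (from -0.0092 to 0.04). It was -0.0063 over 18 pairs of different number (from -0.046 to 0.024), and 7 of 9 libraries correlated best with their own number. With the replicate as a block the log2FC of Il12a was 1.38, 0.67 and 0.71, and the block gave no call of Lif, Il11 or Cxcl12. Depth limits Il11 and the 6 sparse genes most, where 3 counts per library is the floor.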
